A study of Mus musculus with 6 samples.

Results

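The comparison is of mProx24 cells, a proximal tubular line of the C57B6 mouse strain, cultured in high glucose or under control conditions and profiled on Agilent arrays that carry probes for mouse microRNAs (miRNAs), with 1 array for each condition. These are 2 of 6 arrays on 1 slide, all of the same line. The other 4 come from cultures with palmitate, with low oxygen, with triple stimuli, and with triple stimuli plus rapamycin. Triple stimuli are high glucose, palmitate and low oxygen combined. Palmitate was given at 150 uM with 0.15% albumin for 9 h, and low oxygen was 1% for 12 h. Rapamycin was given at 0.4 ug/ml with 12 h of pretreatment. No albumin is listed for the high glucose and control cultures. The high glucose culture was kept at 20% oxygen, and so was the control culture. The labels code the high glucose culture HG PBS and the control culture NG PBS; the glucose concentration, the length of exposure and any control for osmolarity are not given in the sources used here. Each array received labelled product of 100 ng total RNA. All 1247 miRNAs on the array entered the comparison, and 191 of them were detected on at least 1 of the 2 arrays. With a single array per condition there is no replicate check and no test, and the differences below describe these 2 arrays.

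A caution about the labels comes before any direction. The authors' deposited value table and the scanner files disagree on which array was the high glucose array. To within 0.1%, the values in the table's palmitate column equalled those of the high glucose scanner file for 70.6% of miRNAs, and the values in its high glucose column equalled those of the palmitate scanner file for 70.9%. Neither equalled its own scanner file for any miRNA compared (0%). The control column matched the control scanner file for 68.7%. The values below follow the scanner files, so "the high glucose array" means the array labelled so there, and the same comparison with the array labelled palmitate is given further on.

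A miRNA is a short single-stranded RNA, cut from a hairpin precursor, that loads into an Argonaute protein and lowers the output of messenger RNAs pairing with its seed, the stretch near its 5′ end. The proximal tubule takes back filtered glucose from the urine and is a site of injury in diabetic kidney disease. In that setting miRNAs such as miR-21a-5p, the miR-29 family and the miR-200 family have been studied for their links to fibrosis, and the miR-30 family is abundant in kidney epithelium.

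Of the 162 miRNAs detected on both arrays, 11 were higher on the high glucose array than on the control array (6.79%) and 0 were lower (0%), under a rule of at least 1.5-fold and more than 2 standard errors between spots. They were miR-5126, miR-2861, miR-3102-5p, miR-6538, miR-6378, miR-211-3p, miR-3960, miR-2137, miR-1897-5p, miR-1934-3p and miR-1895. Another 27 miRNAs were detected on the high glucose array only, and 2 on the control array only, by the spot criterion used here. The scanner software's own call is more lenient: it counted 228 miRNAs as detected on the high glucose array and 214 on the control array, against 189 and 164 by the spot criterion, and it called 20 of the 27 detected on the control array too. The listed diabetic kidney miRNAs that were detected on both arrays stayed within 1.5-fold. The cells were read in bulk, so a larger share of cells holding a miRNA and more of it per cell cannot be told apart.

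The mature sequences of 8 of the 11 are in RefSeq (GRCm38.p6), and they are printed here because their composition is what most of the group shares. Each reads 5′ to 3′, with the seed (bases 2 to 8) in capitals.
miR-5126: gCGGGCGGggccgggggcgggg
miR-2861: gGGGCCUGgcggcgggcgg
miR-3102-5p: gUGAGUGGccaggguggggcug
miR-6538: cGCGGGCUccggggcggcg
miR-211-3p: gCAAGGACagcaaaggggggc
miR-2137: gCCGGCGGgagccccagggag
miR-1934-3p: aGGAUGACgguggggcugguga
miR-1895: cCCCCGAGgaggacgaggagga
No seed occurs more than once in this set. The 8 therefore form no seed family, although 6 of them hold at least 70% G and C. miR-5126 is made of G and C alone (100%), miR-2861 and miR-6538 hold 94.7%, and miR-2137 holds 85.7%. The lowest shares are 63.6% in miR-1934-3p and 66.7% in miR-211-3p.

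For miR-3960, miR-6378 and miR-1897-5p the RefSeq hairpin is printed, with the stretch that pairs with the array probe in capitals.
miR-3960: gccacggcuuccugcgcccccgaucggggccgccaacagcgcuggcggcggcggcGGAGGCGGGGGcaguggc
miR-6378: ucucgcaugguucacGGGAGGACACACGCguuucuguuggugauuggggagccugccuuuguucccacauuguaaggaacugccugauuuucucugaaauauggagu
miR-1897-5p: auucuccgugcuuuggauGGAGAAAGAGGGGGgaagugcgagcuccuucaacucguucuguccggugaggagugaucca

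The array probes themselves are short and are shown because a run of C recurs in them. Capitals mark runs of at least 4 C.
miR-5126 probe: CCCCgCCCCC
miR-2861 probe: ccgcccgcc
miR-3102-5p probe: cagCCCCaccctg
miR-6538 probe: cgccgCCCCg
miR-6378 probe: gcgtgtgtcctccc
miR-211-3p probe: gCCCCCCtttgct
miR-3960 probe: CCCCCgcctcc
miR-2137 probe: ctccctggggctc
miR-1897-5p probe: CCCCCtctttctcc
miR-1934-3p probe: tcaccagCCCCacc
miR-1895 probe: tcctcctcgtcctcc
Among the named miRNAs with a mature sequence, 14 of 14 probes paired over their whole length with the last bases of the miRNA, so they read its 3′ end. Of these probes 2, those of miR-1895 and miR-500-3p, also reached into the seed.

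On GRCm38.p6, 7 of the 11 higher miRNAs lie within the span of another annotated gene, on either strand. The share over all miRNAs was not counted, so this describes position only. The hairpin of miR-5126 lies at chr1:84695839-84695915 within Dner, that of miR-6538 at chr12:26414901-26415010 within Rnf144a, that of miR-211-3p at chr7:64205806-64205911 within Trpm1, and that of miR-2137 at chrX:72992079-72992144 within Zfp185. The hairpin of miR-1895 lies at chr3:134240505-134240583 within Cxxc4, that of miR-1897-5p at chr3:34638464-34638542 within the long noncoding RNA gene Sox2ot, and the mature miR-3102-5p at chr7:100882388-100882409 within Arhgef17. Whether these positions are exonic or intronic was not analysed here. The hairpins of miR-2861 (chr2:32712807-32712888), miR-3960 (chr2:32712900-32712972), miR-6378 (chr3:34922545-34922651) and miR-1934-3p (chr11:69663043-69663125) lie in no other annotated gene. Mir2861 and Mir3960 are 11 bases apart on the same strand, and both were among the 11.

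The 2 arrays were close in median local background and in spread between spots of a probe, and the high glucose array was the brighter before scaling. Its negative control spots varied more, with a standard deviation of 8.72 against 6.37 on the control array, the widest of the 6 arrays. Their means were 4.58 on the high glucose array and 4.25 on the control array, unscaled. Well above background were 12.9% of miRNA spots on the high glucose array, against 11.5% on the control array. The median spread between spots of a probe was 9.84% on the high glucose array and 10.75% on the control array, no spot was saturated, and the local background had a median intensity of 22 on each. The 75th percentile used for scaling was an intensity of 360 on the high glucose array and 295 on the control array, a step of 0.28 on the log2 scale that scaling removes. The 8 dmr control probes, unscaled, were a median of 0.07 higher (log2) on the high glucose array, less than that step; after scaling their median difference was -0.21. Levels below are scaled intensities on a linear scale, comparable between arrays for 1 miRNA but not between miRNAs, and each is a mean over spots of 1 probe. Scaled levels on the 2 arrays correlated across the 162 miRNAs with r = 0.98 and rho = 0.97, a description of points that share 2 hybridisations.

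**Figure D1:**
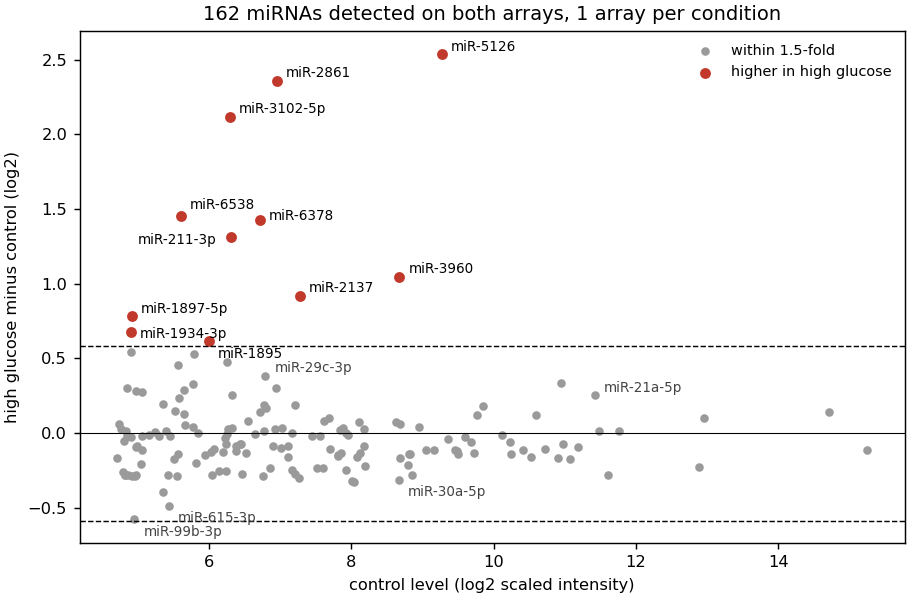
Difference between the high glucose and control arrays (log2, y axis) against the control level (log2 scaled intensity, x axis) for the 162 miRNAs detected on both arrays, with dashed lines at 1.5-fold. The 11 miRNAs in red lie above the upper line and none passed the rule below the lower line; most points lie within 0.25 of 0.

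The largest difference belonged to miR-5126. It had a scaled level of 3579 on the high glucose array against 618 on the control array, a difference of 2.53 ± 0.02 on the log2 scale (spot standard error) and a 5.79-fold ratio. Its 19 spots on the high glucose array ran between 3396 and 3769, its 20 spots on the control array between 578 and 658, and the ranges did not overlap. A second probe of the same miRNA gave 3331 on the high glucose array and 642 on the control array. The software's own summed signal, unscaled, was 2070 ± 147 on the high glucose array and 310 ± 22.0 on the control array. The gap between the arrays was many times the spread of the spots on either.

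miR-2861 and miR-3960, the neighbouring pair, were both higher. In mouse bone-forming cells the pair is known as a cluster that promotes osteoblast differentiation, miR-2861 through the histone deacetylase Hdac5 and miR-3960 through Hoxa2. miR-2861 had 635 on the high glucose array against 124 on the control array, 2.36 ± 0.03 on the log2 scale. miR-3960 had 844 on the high glucose array against 409 on the control array, 1.05 ± 0.01 on the log2 scale. The spots of neither overlapped between arrays: for miR-2861 they ran between 602 and 674 with high glucose and between 104 and 149 in the control, and for miR-3960 between 812 and 881 with high glucose and between 393 and 429 in the control. The neighbours thus differed in size of change, 5.13-fold for miR-2861 and 2.07-fold for miR-3960.

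miR-3102-5p had 340 on the high glucose array and 78.2 on the control array, a 4.34-fold ratio and the third difference past 4-fold. Its other probe showed 329 on the high glucose array and 46.9 on the control array, a log2 difference of 2.81 that exceeds the 2.12 ± 0.03 of the brighter probe. From the same hairpin, miR-3102-5p.2-5p was detected on the high glucose array only, at 26.0 against 16.9 on the control array, and miR-3102-3p was detected on neither.

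miR-6538, miR-6378 and miR-211-3p differed by 2.48- to 2.74-fold. miR-6538 had 134 on the high glucose array and 48.8 on the control array (1.45 ± 0.05, log2). miR-6378 had 283 on the high glucose array and 105 on the control array (1.43 ± 0.05), read from 1 detected probe, since its shorter probe was below background on both arrays. miR-211-3p had 198 on the high glucose array and 79.6 on the control array (1.31 ± 0.03). It is the 3′ arm of a hairpin within Trpm1, whose 5′ arm, miR-211-5p, is known from melanocytes; that arm was detected on neither array. In all 3 the spots of the 2 arrays stayed apart.

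The remaining 4 were under 2-fold. miR-2137 had 295 on the high glucose array and 156 on the control array (0.92 ± 0.03, log2), with its other probe at 77.1 on the high glucose array and 51.8 on the control array, a log2 difference of 0.57 that falls short of 1.5-fold. miR-1897-5p had 52.0 on the high glucose array and 30.2 on the control array (0.78 ± 0.07), while its partner arm miR-1897-3p had 125 with high glucose and 154 in the control (-0.30 ± 0.04). The arms of this hairpin therefore lay on opposite sides of 0. miR-1934-3p had 47.6 on the high glucose array and 29.8 on the control array (0.67 ± 0.06), and it is the only 1 of the 11 whose spots overlapped, between 36.8 and 55.5 with high glucose and between 23.9 and 38.3 in the control. miR-1895 had 97.7 on the high glucose array and 63.8 on the control array (0.61 ± 0.03), just inside the limit, and its other probe gave 0.38. Of these, miR-1897-5p, miR-1934-3p and miR-1895 no longer passed the rule under quantile normalization or under normexp background correction, and miR-2137 passed under both. miR-1934-3p and miR-1895 were also lost under the median scaling, the summed signal and the mean of all probes. miR-1895 was lost as well with the 75th percentile over all probes. Among the larger differences, normexp lowered miR-3102-5p to 2.68-fold and miR-6538 to 1.62-fold, and the mean of all probes lowered miR-6378 to 1.56-fold.

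Across the group, 19 of the 22 probes were detected on both arrays. Of these, 19 of 19 were higher on the high glucose array and 17 were past 1.5-fold. The brightest probe of each of the 11 miRNAs made its call, so those 11 probes were past the limit by selection. A second probe was detected on both arrays for 8 of the miRNAs. Among these second probes, miR-2137 (0.57, log2) and miR-1895 (0.38) fell short of 1.5-fold. The lowest of the 19 was the 0.38 of miR-1895. These probes share the 2 hybridisations, so they show agreement within an array pair and not between cultures. The probes of 1 miRNA differ in length, such as 10 and 11 bases for miR-5126, and are made for the same short RNA. They are therefore not independent readings of it.

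**Figure D2:**
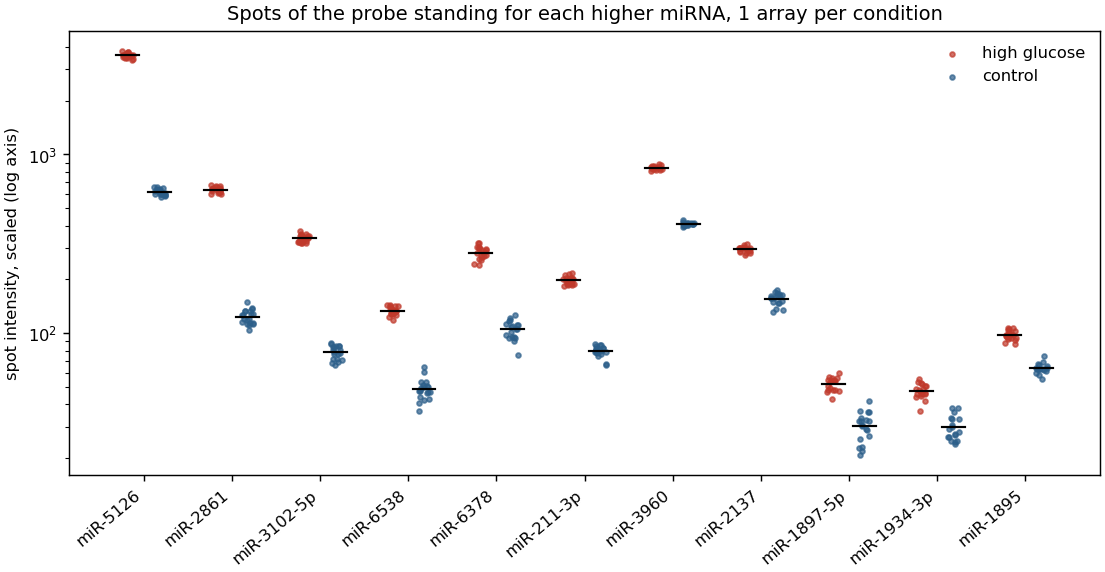
Scaled intensity (y axis, log scale) of every retained spot of the probe that stands for each of the 11 higher miRNAs, with the high glucose array in red on the left of each pair and the control array in blue on the right; black bars are means. The spots of 10 of the 11 do not overlap between arrays, and those of miR-1934-3p do. The 11 were chosen for a gap beyond the spot error, so separated spots largely follow from that choice. Overlap was not counted over all 162 miRNAs.

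Among the 27 miRNAs detected on the high glucose array only, 7 (25.9%) were at least 1.5-fold above a reference value for the control array. Of these, 5 were at least 2.93-fold above it. The software called 4 of the 7 (miR-149-3p, miR-135a-1-3p, miR-680 and miR-500-3p) detected on the control array as well. The reference was the control array's lowest detected signal, a scaled intensity of 22.8, or the miRNA's own control signal where that was higher. Over the lowest detected signal the ratio is a lower bound. For miR-135a-1-3p and miR-500-3p the own control signal was the higher, so theirs are ratios of 2 measured means and not bounds. miR-149-3p, reported in human tumour cells to target AKT1 and E2F1, lies within Gpc1 (hairpin chr1:92850378-92850443). It had 80.0 on the high glucose array and 20.2, not well above background, on the control array, at least 3.51-fold higher. Its partner arm miR-149-5p was detected on both, at 55.5 with high glucose and 61.3 in the control, a log2 difference of -0.14 ± 0.07.

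miR-290-5p belongs to a cluster known from mouse embryonic stem cells. It had 66.8 on the high glucose array and 5.69 on the control array, at least 2.93-fold higher, and the spots ran between 61.9 and 77.8 with high glucose and between 1.34 and 13.5 in the control. miR-721, within Cux1 (hairpin chr5:136375716-136375803), had 69.4 on the high glucose array and 10.9 on the control array, at least 3.05-fold higher. It carries the seed of miR-130a-3p and miR-301a-3p, which were detected on both arrays with differences of -0.22 and -0.26 (log2), within 1.5-fold, that became 0.07 and 0.02 without scaling.

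miR-135a-1-3p had 92.6 on the high glucose array and 27.6 on the control array, a 3.35-fold ratio (1.74 ± 0.16, log2). miR-680 had 72.2 on the high glucose array and 16.7 on the control array, at least 3.17-fold higher. Their spots did not overlap between arrays. All 4 probes of miR-680, length variants of 10 to 13 bases, stood between 67.2 and 72.2 on the high glucose array. On the control array they stood between 13.7 and 17.9. The other 2, miR-500-3p and miR-5131, had spots that overlapped between arrays. miR-500-3p had a measured ratio of 1.52-fold (0.61 ± 0.10, log2), close to the 1.5-fold limit, and miR-5131 was at least 1.52-fold higher. The mature sequences of 6 of the 7 were matched, and are shown to be read against those of the first group.
miR-149-3p: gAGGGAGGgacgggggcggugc
miR-135a-1-3p: uAUAGGGAuuggagccguggcg
miR-680: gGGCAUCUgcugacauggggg
miR-721: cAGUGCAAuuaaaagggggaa
miR-500-3p: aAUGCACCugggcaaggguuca
miR-5131: cGGCGCCCcacggagccccgagc
The capitals again mark the seeds. Of the other 20 miRNAs detected only with high glucose, 14 had ratios above 1 and under 1.5-fold over the same kind of reference, and 6 allowed no ratio. miR-466q and let-7b-3p were detected on the control array only. On the high glucose array miR-466q was 1.25-fold lower by its own signal there, and let-7b-3p at least 1.10-fold lower, so neither figure reached 1.5-fold.

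The composition of the group was then described over all miRNAs, as a pattern chosen after the values were seen. Of 9 miRNAs detected on both arrays whose mature sequence holds at least 70% G and C, 6 were higher (66.7%), and of 68 with under 50%, 0 were. The median difference was 0.92 (log2) for the 9 and -0.05 for the 68, against -0.05 over all 162. The correlation of the difference with GC share over 133 miRNAs was r = 0.52 and rho = 0.08. The points share 2 hybridisations. The 3 biggest differences all lie at 72.7% GC or above, while the ranks over all 133 show next to no trend.

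The probes were searched for runs of C in the same way. CCCC, searched in the probe strand only, occurred in the probe of 63 of the 1247 miRNAs (5.05%) and of 16 of the 162 detected on both arrays. Of those 16, 7 were higher (43.8%), and of the 146 without it, 4 (2.74%). Among the 7 detected with high glucose only and past 1.5-fold, 4 probes held it, while 2 of the 6 with a mature sequence reached 70% G and C, the lowest being miR-721 at 42.9%. Of 7 probes of 8 to 11 bases, 4 belonged to higher miRNAs, and of 119 probes of at least 15 bases, 1 did.

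Some C-rich or GC-rich miRNAs were not higher. miR-5105, whose probe has a run of 6 C, had 659 on the high glucose array and 716 on the control array, a log2 difference of -0.12. miR-6366, with a GC share of 72.7% and a run of 4 C, had 36024 on the high glucose array and 38903 on the control array (-0.11). miR-652-5p had -0.07, miR-155-5p -0.02 and miR-370-3p -0.29. In the other direction, miR-6378 and miR-2861 were higher without CCCC in the probe. The part of probe composition in these differences was not tested.

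**Figure D3:**
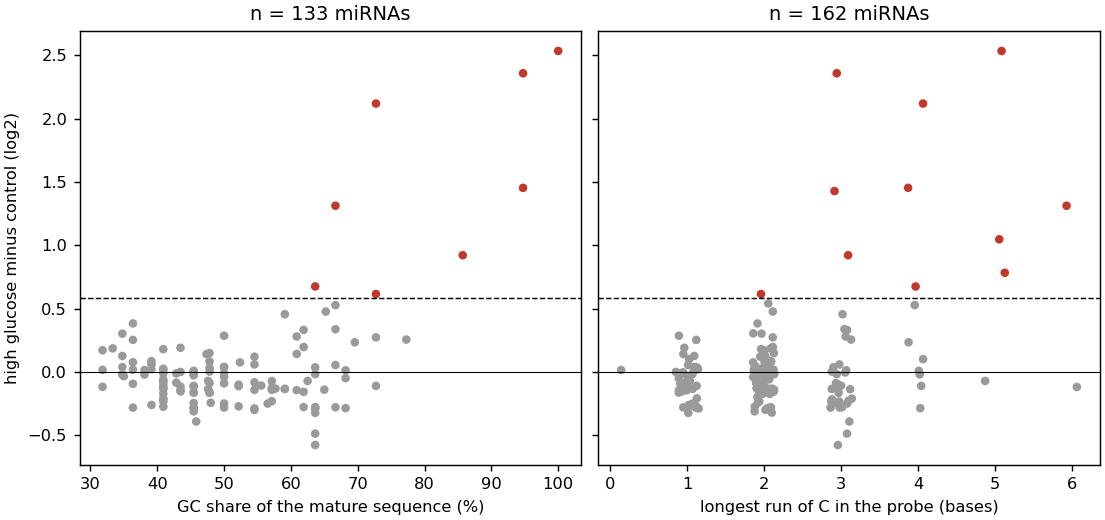
Difference between the high glucose and control arrays (log2, y axis) against the GC share of the mature sequence (left, 133 miRNAs) and against the longest run of C in the probe (right, 162 miRNAs, points spread sideways for legibility); red points passed the rule, and the dashed line is 1.5-fold. The 8 higher miRNAs with a mature sequence lie at GC shares of 63.6% and above, beside others in that range that lie near 0. miR-3960, miR-6378 and miR-1897-5p have no GC share and are absent from the left panel.

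Most miRNAs hardly differed. Of the 162, 113 (69.8%) lay within 0.25 log2 units of 0, 64 were above 0 and 98 below, and the median was -0.05. The balance of signs depends on the scaling: 152 were above 0 and 10 below without scaling, and 128 above and 34 below with the dmr control probes as the scale. The 5th and 95th percentiles were -0.29 and 0.78, so the upper tail was the longer. Just outside the limit, miR-3096a-5p had 43.5 on the high glucose array and 29.9 on the control array (0.54, log2), and miR-6368 had 79.5 on the high glucose array and 55.2 on the control array (0.53). miR-3081-5p (0.48), miR-125a-3p (0.46) and miR-29c-3p (0.38) came next on this side.

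On the lower side miR-99b-3p came nearest, at 20.7 on the high glucose array, which is that array's floor, and 30.9 on the control array (-0.58 ± 0.20). It passed the rule as lower when the 75th percentile was taken over all probes, and with miR-615-3p under the median and quantile scalings. miR-615-3p had 30.8 on the high glucose array and 43.2 on the control array (-0.49 ± 0.10), and miR-181b-5p 31.1 on the high glucose array and 40.8 on the control array (-0.39 ± 0.09). miR-99b-5p and miR-5097 followed, each at -0.32.

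The miRNAs with the strongest control signal differed little. miR-6366, miR-3963, miR-5109, miR-6243, let-7f-5p, miR-494-3p, let-7a-5p, miR-21a-5p, miR-125b-5p and let-7c-5p all lay between -0.28 and 0.25 (log2). miR-494-3p was the lowest of them, at 2576 on the high glucose array and 3134 on the control array, and miR-21a-5p the highest.

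The lists of miRNAs by pathway and cell type gave no call. In the list for high glucose and diabetic kidney, 29 of 30 members were on the array, 9 were detected on both arrays and 20 on neither, 0 were past the rule against 6.79% of all miRNAs, and the median difference was -0.04 (log2) against -0.05, turning to 0.24 without scaling. miR-21a-5p, which is known to rise with injury and to promote fibrosis in the kidney, was its highest member, at 3262 on the high glucose array and 2738 on the control array (0.25 ± 0.03). miR-23b-3p was its lowest, at 155 on the high glucose array and 183 on the control array (-0.23). miR-192-5p, miR-216a-5p, miR-217-5p and miR-377-3p, which have been studied in mesangial cells of the diabetic glomerulus, were not detected on either array.

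The miR-29 family, which targets collagen messages, stood slightly above 0 in 3 of 3 members at the scaling used here. miR-29c-3p had 144 on the high glucose array and 111 on the control array (0.38 ± 0.07), miR-29a-3p 1046 on the high glucose array and 924 on the control array (0.18 ± 0.04), and miR-29b-3p 243 on the high glucose array and 237 on the control array (0.04 ± 0.04). All stayed within 1.5-fold, with a list median of 0.18 that ran from 0 to 0.46 over the alternatives. Of the wider TGF-beta and fibrosis list, 7 of 14 members were detected on both arrays with a median of 0.04, between the -0.29 of miR-212-3p and the 0.38 of miR-29c-3p.

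The proximal tubule and kidney epithelium list lay on the other side of 0. Detected on both arrays were 7 of its 12 members, the 5 miR-30 family 5p arms with miR-10a-5p and miR-10b-5p, and 7 of 7 were below 0 with a median of -0.15, which turned above 0 without scaling (0.13) and with the dmr control probes as the scale. miR-30a-5p had 328 on the high glucose array and 408 on the control array (-0.31 ± 0.04), and miR-30b-5p 100.1 with high glucose and 100.4 in the control (-0.004). The tubule markers miR-204-5p, miR-192-5p and miR-194-5p were not detected, nor were miR-146b-5p and miR-215-5p. None of the 7 members of the epithelial miR-200 family was detected. Only the miR-30 and miR-10 members of these lists were, and the tubular label here is that of the named line.

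Each of the lists below had its median above 0 without scaling, except the miR-181 family. At the scaling used here, other lists had medians near the -0.05 of all 162 miRNAs. Glucose, insulin and lipid metabolism had -0.08 over 8 miRNAs, between miR-370-3p at -0.29 and miR-26b-5p at 0.19. The let-7 family had -0.01 over 9, between let-7c-5p at -0.17 and miR-98-5p at 0.17. The miR-17/92 cluster with its paralogs had -0.01 over 10, between miR-92a-3p at -0.14 and miR-17-5p at 0.15, and the miR-15/16 family -0.04 over 4, between miR-322-5p at -0.08 and miR-15a-5p at 0.02. In these families the members stayed close to each other as well as to 0.

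The p53 and apoptosis list had a median of -0.001 over 4, between miR-107-3p at -0.09 and miR-34a-5p at 0.04. Inflammation and NF-kB had -0.14 over 4, between miR-212-3p and miR-31-5p at 0.12. The miR-23/27/24 clusters had -0.14 over 5, between miR-23b-3p and miR-27a-3p at 0.07, and the miR-99/100 and miR-125 list -0.19 over 4, between miR-99b-5p and miR-99a-5p at 0.04. In the low oxygen list, which serves here as a set for a stimulus that neither array received, 13 of 14 were detected on both with a median of -0.14, between miR-181b-5p and miR-21a-5p. miR-210-3p, the classical low-oxygen miRNA, was detected on the high glucose array only, yet its signals were 24.2 there and 24.8 on the control array, so no ratio is given. Of the miR-181 family, miR-181b-5p alone was detected.

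Markers of other cell types were near background on both arrays. None of the 5 blood, 2 endothelial and 5 fibroblast and smooth muscle markers on the array was detected, and of 6 muscle, neuron and hepatocyte markers miR-206-3p was, at 89.0 on the high glucose array and 108 on the control array (-0.28 ± 0.05). None of these markers was higher with high glucose.

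**Figure D4:**
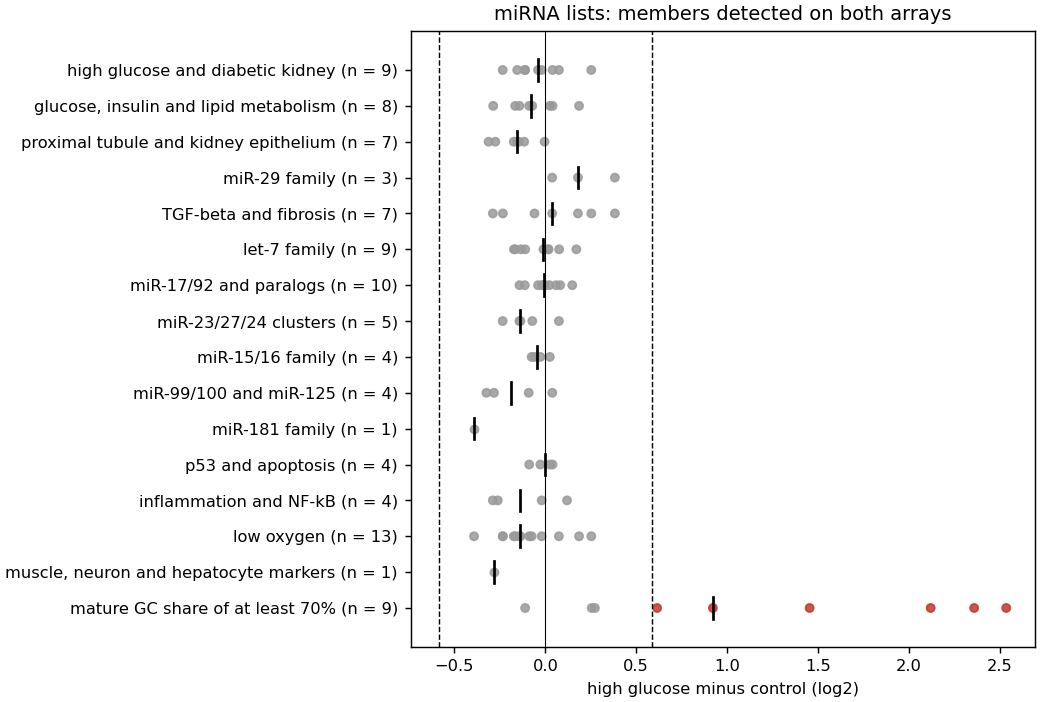
Difference between the high glucose and control arrays (log2, x axis) for the members of each list that were detected on both arrays (1 point each), with the list median as a black bar and dashed lines at 1.5-fold in each direction. Members of the pathway and cell type lists (grey) stay between the dashed lines, and 6 of the 9 GC-rich miRNAs (red, bottom row) lie beyond the upper line.

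By miRBase number, a rough marker of when a miRNA was catalogued, 10 of 48 detected miRNAs numbered 1000 or above were higher (20.8%) and 1 of 114 numbered below 1000 was, namely miR-211-3p. The medians of these sets were 0.02 and -0.09 on the log2 scale, so most of the later-numbered miRNAs differed little too. Seeds were read for the 133 of 162 miRNAs with a matched mature sequence, which leaves out miR-3960, miR-6378 and miR-1897-5p of the higher group, and miR-30b-5p and miR-30d-5p. Among the 133, 18 seeds were shared by 2 or more miRNAs, 50 in all, and 0 of the 18 held a higher miRNA. The medians of these groups ran between -0.27 and 0.18 (log2).

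The same 11 were read on all 6 arrays, which share the control. On the high glucose array 10 of the 11 were at their highest, and miR-1897-5p was highest with triple stimuli and rapamycin, at 55.5 against 52.0 with high glucose. The array of triple stimuli with rapamycin, and that of triple stimuli alone, both labelled HG like the high glucose array, also read above the control for 11 of 11. miR-5126 had 3579 with high glucose, 643 with palmitate, 784 with low oxygen, 1620 with triple stimuli, 2510 with triple stimuli and rapamycin, and 618 in the control. Its level was more than 2-fold above the control on those 3 arrays and under 1.5-fold on the palmitate and low oxygen arrays.

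miR-2861 followed the same order, with 635 with high glucose, 130 with palmitate, 154 with low oxygen, 307 with triple stimuli, 470 with triple stimuli and rapamycin, and 124 in the control. For 11 of the 11 (100%) the 3 arrays labelled with high glucose were all above the other 3, a pattern that 24 of the 154 miRNAs detected on all 6 arrays showed (15.6%). Since the high glucose and control arrays chose the 11, that count is a description. The median difference of the 11 from the control was 1.31 (log2) with high glucose, 0.07 with palmitate, -0.04 with low oxygen, 0.69 with triple stimuli and 0.93 with triple stimuli and rapamycin. The 2 arrays with several stimuli also received palmitate with albumin and low oxygen, so on them these and glucose cannot be told apart. By its label the palmitate array also received albumin, so on it palmitate and albumin cannot be told apart.

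**Figure D5:**
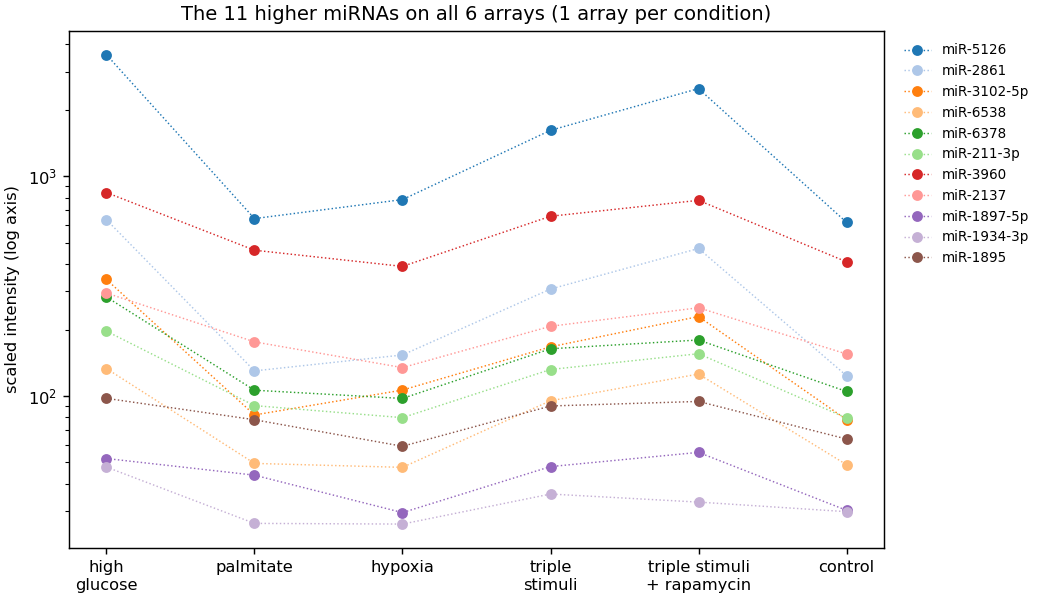
Scaled intensity (y axis, log scale) of the 11 higher miRNAs on the high glucose, palmitate, low oxygen, triple stimuli, triple stimuli with rapamycin and control arrays (1 array each; dotted lines only join points of 1 miRNA). Levels are highest on the high glucose array for 10 of the 11. Differences from the control (log2) run between -0.18 and 0.53 on the palmitate array and between -0.21 and 0.45 on the low oxygen array.

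Under the labels of the authors' value table, the array labelled palmitate in the scanner files would be the high glucose array. Read that way, 0 of 155 miRNAs detected on both it and the control array were higher (0%) and 4 were lower (2.58%). The 4 were miR-6366, with 22211 on the palmitate-labelled array against 38903 on the control array (-0.81, log2), miR-5097 (-0.79), miR-212-3p (-0.76) and miR-5100 (-0.70). On the array labelled high glucose miR-6366 lay at -0.11, miR-5097 at -0.32, miR-212-3p at -0.29 and miR-5100 at -0.16. Of the 11 miRNAs above, 10 lay above 0 on the palmitate-labelled array, by at most 0.53 (miR-1897-5p), and miR-1934-3p lay at -0.18. Which of the labels is right was not settled by the sources used here, and the 11 differences belong to the array whichever stimulus it received.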

How the data were processed

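Single-colour Agilent arrays, 6 in all and 1 per condition, were read with Agilent Feature Extraction 10.7.3.1, per the submitters' processing notes. The deposited spot values are linear intensity, background-subtracted by that software per the file headers and not normalised between arrays. The authors' deposited value table holds a linear signal per miRNA, not centred, with a scale factor that no source used here explains; it was used as an alternative only. Column medians are 0.00444 for high glucose and 0.00475 for the control.

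A probe's value was the mean of its spots without outlier flags. It counted as detected with at least 0.5 of its spots well above background, read before scaling. Scaling divided each array by its 75th percentile over the 281 probes that all 6 arrays detected; values were then floored at the array's lowest detected signal and put on the log2 scale, and the brightest probe stood for a miRNA. A miRNA was called where it was detected on both arrays, at least 1.5-fold different and by more than 2 standard errors between spots. Those errors cover the spread within an array only. Where a miRNA was detected on 1 array, a ratio was taken against the other array's lowest detected signal or the miRNA's own, whichever was higher. It is a lower bound only where the lowest detected signal was used.

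Named are all miRNAs past the rule or with a bound of 1.5-fold, the 8 nearest outside, the 5 lowest, the 10 brightest in the control, extremes of each list, miR-21a-5p, miR-210-3p, the miR-29, miR-30 and let-7 members, and partner arms and neighbours within 10 kb; the value-table and probe-run exceptions were named after their values were seen. The members, lists and rules were chosen with earlier results of these data known. Mature sequences from RefSeq matched 1017 of the 1247 miRNAs, and 133 of the 162 detected on both arrays. Steps, with quantile normalization among them, ran in Python 3.11.15, and limma 3.58.1 in R 4.3.3 gave the normexp alternative. The arithmetic of the rule was checked on simulated spots with planted folds, built from the control array with spot noise alone and without scaling. That check holds no spread between cultures or hybridisations, so it does not show how the rule behaves under such spread. The 16 alternatives cover scaling, background, probe summary, spots, detection, the fold limit, the exchanged label and the value table.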

Additional observations from a re-analysis of the deposited data

How the results depend on the processing

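No paired analysis was possible because each condition has 1 array. The count of 11 higher miRNAs became 20 without scaling, 7 at a limit of 2-fold, 0 with the palmitate-labelled array in place of the high glucose array, and 5 from the value table's high glucose column, with 0 of the 11 among those 5; under the other 12 alternatives it ran from 8 to 15. The count of 0 lower became 1 with the 75th percentile over all probes, 2 with the median and 2 with quantile normalization, 4 with the palmitate-labelled array and 10 from the value table. The 27 detected with high glucose only became 7 with the palmitate-labelled array and 5 from the table. The 2 detected in the control only became 7 on even-numbered spots, 1 on odd-numbered spots, 9 with the palmitate-labelled array and 13 from the table. The median difference of -0.05 (log2) became -0.12 with the 75th percentile over all probes, -0.17 with the median, -0.17 with quantile normalization, 0.23 without scaling and 0.14 with the dmr control probes as the scale. miR-1934-3p turned to -0.18 with the palmitate-labelled array and to -0.16 in the table. Leaving aside the exchanged label and the table, miR-5126, miR-2861, miR-3102-5p, miR-6538, miR-211-3p and miR-3960 passed under 14 of 14 alternatives and miR-6378 under the 13 of 13 that gave it a value, though sizes fell: with normexp miR-3102-5p went to 1.42 (log2), miR-6538 to 0.70 and miR-1897-5p to 0.15, and with the mean of all probes miR-6378 to 0.65. On the same basis the call was kept for miR-2137 under 13 of 14, miR-1897-5p under 10 of 13, miR-1934-3p under 7 of 13 and miR-1895 under 7 of 14. The alternatives that only restrict detection left each value unchanged, so a called miRNA that they retained passed there by construction. The spread between cultures was not measured. miRNAs near the floor of about 20.7 on the high glucose array and 22.8 on the control array have differences that are cut short. The cause of these shifts was not tested.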

Other observations

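Among the miRNAs detected on both arrays, 44 fell into 18 groups whose hairpins lie within 10 kb of the next on GRCm38.p6. The pair of miR-2861 and miR-3960 had a median difference of 1.70 (log2), the highest of the 18. The other groups stayed near 0. The chromosome 14 group of miR-17-5p, miR-18a-5p, miR-19a-3p, miR-20a-5p, miR-19b-3p, miR-92a-3p and miR-17-3p had a median of 0.02, between -0.14 and 0.15. The group of miR-183-5p, miR-96-5p and miR-182-5p had a median of -0.13, and that of miR-106b-5p, miR-93-5p, miR-25-3p and miR-106b-3p a median of -0.08. miR-125a-3p and miR-125a-5p, arms of 1 hairpin, had differences of 0.46 and -0.28.

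Some of the probes share letters. Those of miR-3102-5p and miR-1934-3p hold a common stretch of 10 bases, those of miR-5126 and miR-149-3p a stretch of 8, and those of miR-211-3p and miR-721 another of 8. The probes of miR-5126 and miR-3960 share 7 bases. How far a probe also binds RNA other than its own miRNA was not tested.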
